A study of Homo sapiens with 12 samples.

Results

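A set of 10 genes of the transforming growth factor beta (TGF-beta) system were followed in SCC-15 cells with hairpins against fibromodulin: the ligands TGFB1, TGFB2 and TGFB3, the receptors TGFBR1, TGFBR2 and TGFBR3, the latency protein LTBP1, the signal transducer SMAD3, its inhibitor SMAD7 and the target gene TGFBI. They were taken by name, since fibromodulin, the matrix proteoglycan encoded by FMOD, binds TGF-beta. All 10 were among the 61044 identifiers counted and all 10 were among the 17532 genes that passed the filter on low counts. SCC-15 is an established human cell line from an oral squamous cell carcinoma. It carried either a negative-control short hairpin RNA (shRNA-NC, here NC) or one out of 3 hairpins that target FMOD (shRNA1-FMOD, shRNA2-FMOD and shRNA3-FMOD, here shRNA1, shRNA2 and shRNA3), and RNA was taken at 48 hours. Each of the 4 groups had 3 libraries, 12 in all, and nothing in the labels says that they came from separate cultures, so p-values measure the spread between these libraries, which may be technical. Whether each line was a clone or a pool is not given in the sources used here.

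TGF-beta is secreted in a latent complex that latent TGF-beta binding proteins such as LTBP1 tie to the matrix, and integrins and thrombospondin release it. The free ligand binds the type II receptor TGFBR2, which activates the type I receptor TGFBR1, and the betaglycan TGFBR3 presents ligand, above all TGF-beta 2. TGFBR1 then phosphorylates SMAD3, which enters the nucleus with SMAD4 and binds short DNA elements, while SMAD7 blocks the receptor. In squamous epithelium the pathway is known for restraining growth and, in carcinoma, for invasion and loss of epithelial features.

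FMOD itself gave 2, 2 and 3 counts in the NC libraries and 0 counts in each of the 9 shRNA libraries. The counts lie in the direction of the labels, but a count of 0 allows up to 3 counts, as many as any NC library had. No single library therefore shows a direction. FMOD did not pass the filter and was not tested, the depth cannot show the size of any depletion, and no fold change is given. Library totals lay between 17286934 and 19567192 counts. Over all genes tested, NC libraries correlated with shRNA libraries at 0.773 to 0.795 and with each other at 0.987. Libraries of shRNA1 correlated with those of shRNA2 at 0.961 to 0.972, and libraries 1 and 2 of shRNA3 with other shRNA libraries at 0.897 to 0.921. Library 3 of shRNA3 stood apart from its group: it correlated at 0.908 to 0.911 with libraries 1 and 2 of shRNA3 and at 0.981 with the shRNA2 libraries. Results of shRNA3 for the members are therefore given with all 3 libraries and, where they differ, with libraries 1 and 2 only and with library 3 only. In 12 squamous epithelial markers the summed level was 4504 to 4977 CPM (the count relative to its library's size, scaled by the trimmed mean of M-values, TMM) in NC, 2820 to 3425 with shRNA1, 3078 to 3158 with shRNA2 and 3153 to 7865 with shRNA3. None of the 12 was at 0 throughout a group, although PKP1 was under 1 CPM with shRNA1 and shRNA2 and KRT5 was at 1009 CPM in NC against 21.4, 80.2 and 74.9 CPM with shRNA1, shRNA2 and shRNA3. CDH1 was also lower with each hairpin, at 323 CPM in NC against 38.2, 53.4 and 66.1 CPM, and so was TP63 by group mean. Other keratins of the list were higher with each hairpin: KRT14 was at 7.58 CPM in NC against 55.5, 24.5 and 149 CPM, KRT6A at 92.3 against 284, 429 and 211 CPM, and KRT17 at 312 against 647, 572 and 749 CPM. By group mean DSG3 was higher with each hairpin too, and EPCAM, SFN, LAMB3 and ITGB4 differed in direction between hairpins. In each of the 3 shRNA groups DCN, COL3A1, PDGFRA, THY1 and POSTN (fibroblast), KDR (endothelium), and PTPRC, CD3E and LYZ (leukocyte) were under 1 CPM, and each of these was under 1 CPM in NC too, with DCN, THY1, POSTN and PTPRC at 0 in every NC library. Others of these lists differed from NC. PDGFRB went from 10.7 CPM in NC to 0.765, 1.10 and 0.728 CPM with shRNA1, shRNA2 and shRNA3. COL1A2 went from 4.81 to 0.0688, 0 and 0.0243 CPM, and CD14 from 4.17 to 0.808, 1.85 and 0.765 CPM. LUM, VWF and CDH5 were also lower with each hairpin, and PECAM1 and CD68 were higher by group mean. COL1A1, at 41.7 CPM in NC, was at 17.3, 44.6 and 65.9 CPM. The summed fibroblast list was 56.9 to 59.7 CPM in NC and 15.6 to 86.7 CPM over the shRNA libraries, the endothelial list 17.9 to 23.2 and 4.03 to 14.2 CPM, and the leukocyte list, nearly all CD68, 58.8 to 76.3 and 44.5 to 236 CPM. The part of other cells in the results below was not tested beyond these levels. In bulk RNA, fewer cells with a transcript and less transcript per cell cannot be told apart.

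Sequence is shown for 3 members that changed in 1 direction with all 3 hairpins: TGFB2, the gene with the largest fall, TGFBR1, which also fell, and TGFBR3, which rose. The stretches lie upstream of the first start site that RefSeq lists (GRCh38.p14) and are read on the gene's strand, 5′ to 3′. For TGFBR1 and TGFBR3 that site lies inside the gene as positioned below. Capitals mark the core letters of the SMAD-binding element, AGAC, or GTCT where it lies on the other strand.
TGFB2: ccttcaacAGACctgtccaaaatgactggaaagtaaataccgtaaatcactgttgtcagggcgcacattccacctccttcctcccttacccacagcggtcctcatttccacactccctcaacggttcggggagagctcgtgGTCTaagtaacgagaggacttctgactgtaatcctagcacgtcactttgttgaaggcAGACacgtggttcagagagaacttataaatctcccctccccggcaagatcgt
TGFBR1: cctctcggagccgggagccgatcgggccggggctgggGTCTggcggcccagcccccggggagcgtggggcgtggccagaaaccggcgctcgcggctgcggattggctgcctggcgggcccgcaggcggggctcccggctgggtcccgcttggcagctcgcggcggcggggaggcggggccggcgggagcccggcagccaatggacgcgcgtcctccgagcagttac
TGFBR3: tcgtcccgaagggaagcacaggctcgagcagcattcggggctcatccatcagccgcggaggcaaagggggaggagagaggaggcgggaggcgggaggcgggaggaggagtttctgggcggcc
The TGFB2 stretch is chr1:218345086-218345335 on the plus strand and covers the 250 bases before the start; it holds 3 matches, and the last of them lies within CAGACA, the fuller element. The TGFBR1 stretch, chr9:99104863-99105088 on the plus strand, holds 1 match and ends 25 bases before the start, where an annotated exon begins. For TGFBR3, chr1:91886280-91886401 on the minus strand, annotated exon begins earlier and the 122 bases shown hold no match. By the gene positions given below, TGFBR1 begins at 99104038 and TGFBR3, on the minus strand, at 91906335. Both stretches therefore lie inside the gene, and their matches do not describe the sequence before those gene starts. Over the full 250 bases, at least 1 match to AGAC or GTCT was found in 7 of the 10 members, against 77.5% of 35116 promoter windows of that length in the RefSeq table, whose median was 1 match. SMAD7 had 4, TGFB2 and LTBP1 had 3 each, TGFB3 had 2, TGFBR1, TGFBR2 and TGFBI had 1 each, and TGFB1, TGFBR3 and SMAD3 had none. CAGACA or TGTCTG was in the window of 1 member, TGFB2, and in 13.6% of all windows. The palindrome GTCTAGAC was in the window of no member and in 0.182% of all windows. The window of SMAD7 lies wholly within an annotated SMAD7 exon and is not shown. Matches in it, or their absence, do not describe the sequence before the start of the SMAD7 gene. By the gene positions given below, the window of SMAD3 also lies inside its gene, and that of TGFBI overlaps the start of its gene. These matches describe letters in a window; binding was not measured.

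Of the 10 genes, 4 passed the test in the same direction with all 3 hairpins. TGFB2 and TGFBR1 were lower and SMAD7 and TGFBR3 were higher than in NC, which is 2 lower and 2 higher, where 19.7% of all genes tested were lower with every hairpin and 16.0% higher, 35.7% in all. Most of this transcriptome differed from NC: with shRNA1, 6 members passed, 3 higher and 3 lower, against 57.4% of all genes (26.8% higher, 30.6% lower). With shRNA2, 8 passed, 4 higher and 4 lower, against 53.0% (24.6% and 28.4%). With shRNA3, 5 passed, 3 higher and 2 lower, against 53.9% (26.4% and 27.6%), and for the mean of the 3 hairpins 7 passed, 4 higher and 3 lower, against 60.0% (27.9% and 32.2%). Against such shares of all genes, the number of members called is not a result about the members. With libraries 1 and 2 of shRNA3 only, 8 members passed with shRNA1, 9 with shRNA2, 8 with shRNA3 and 8 for their mean, against 73.1%, 70.2%, 73.1% and 74.2% of all genes. With library 3 only the member counts were again 8, 9, 8 and 8, against 71.3%, 68.1%, 56.9% and 73.1%. In 5 genes every shRNA library lay beyond every NC library, TGFB1, TGFBR3 and SMAD7 above and TGFB2 and TGFBR1 below, as did 44.8% of all genes (19.0% above, 25.8% below). The comparisons with NC share its 3 libraries, so a change with a hairpin and a difference particular to the NC cells cannot be told apart. Unless stated, fold changes and adjusted p-values are from edgeR's quasi-likelihood F test over all 17532 genes, two-sided, with Benjamini-Hochberg adjustment and a threshold of 0.05, and an error is a standard error (SE) on the log2 scale.

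**Figure D1:**
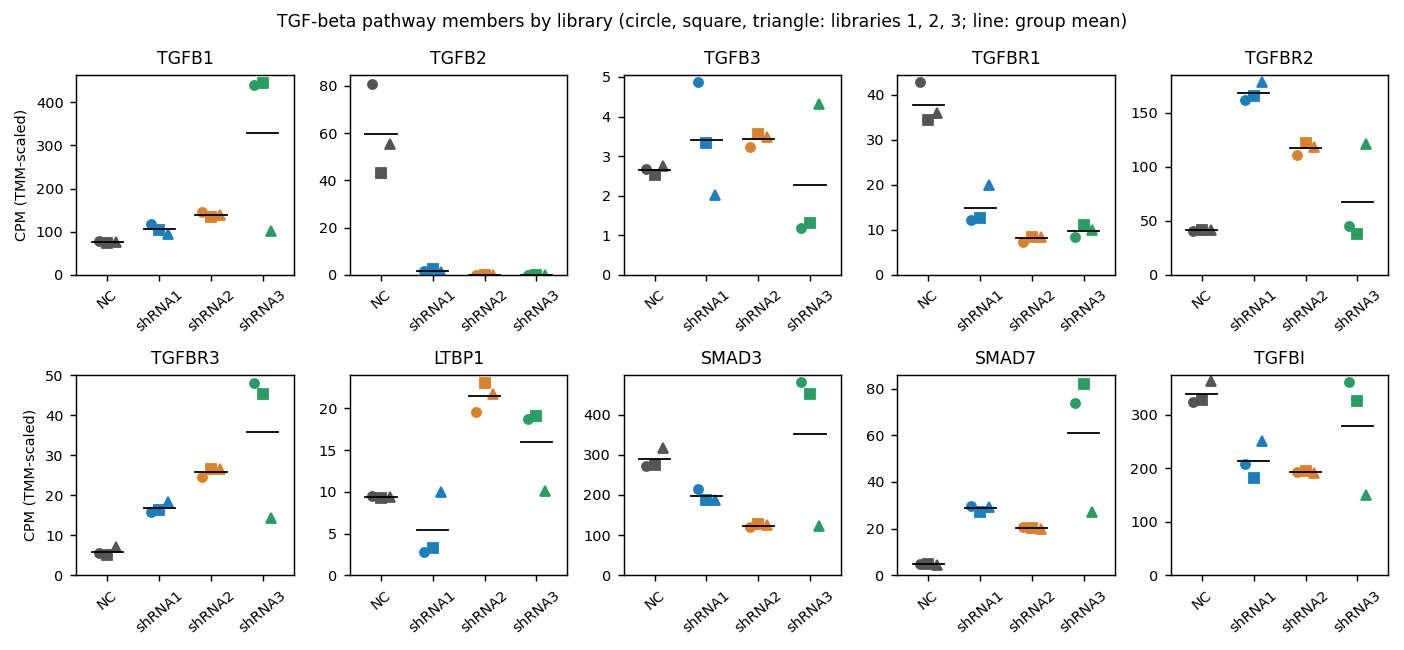
Level of each member in CPM (TMM-scaled, linear axis with its own range in each panel) by group; circles, squares and triangles are libraries 1, 2 and 3 and the line is the group mean. TGFB2 and TGFBR1 are below NC in all 9 shRNA libraries, SMAD7, TGFBR3 and TGFB1 are above it, and the triangle of shRNA3 lies apart from the circle and square in most panels.

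Among the ligands, TGFB2 all but disappeared. Its gene lies on chromosome 1 (218346235 to 218444619, plus strand, GRCh38, as for all positions here from GENCODE 29). It gave 80.7, 43.2 and 55.4 CPM in NC, 1.59, 2.33 and 1.24 CPM with shRNA1, 0.117, 0.0564 and 0 CPM with shRNA2, and 0, 0 and 0.0993 CPM with shRNA3. In deposited counts, rounded, these are 1599, 878 and 1093 in NC, 32, 48 and 24 with shRNA1, 2, 1 and 0 with shRNA2, and 0, 0 and 2 with shRNA3. No shRNA library came near the lowest NC library, and shRNA1 lay between NC and the other hairpins without overlap. On the log2 scale TGFB2 fell by 5.11 (SE 0.44, adjusted p = 3.47e-06) with shRNA1. With shRNA2 and shRNA3 the fitted changes were -9.88 (SE 0.62, adjusted p = 4.41e-07) and -10.27 (SE 0.65, adjusted p = 4.78e-07). With shRNA3 the value was -13.08 from libraries 1 and 2 only and -9.11 from library 3 only. All these values for shRNA2 and shRNA3 rest on a prior count because so few reads were left. From summed counts the NC level was 34.5 times that with shRNA1 (95% interval 28.4 to 42.3), 1052 times that with shRNA2 (360 to 5102) and 1413 times that with shRNA3 (391 to 11668), where the intervals cover counting error only. In GENCODE 29 the printed upstream stretch overlaps an exon of the antisense gene TGFB2-AS1, and the TGFB2 gene begins downstream of the start RefSeq lists.

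TGFB1, on chromosome 19 (41301587 to 41353911, minus strand), moved the other way. It was at 79.6, 73.4 and 75.2 CPM in NC, 119, 104 and 95.7 CPM with shRNA1, 146, 135 and 139 CPM with shRNA2, and 440, 445 and 101 CPM with shRNA3. All 9 shRNA libraries were above all NC libraries, and libraries 1 and 2 of shRNA3 were the highest by far. The log2 fold change was 0.48 (SE 0.40, adjusted p = 0.323) with shRNA1, 0.88 (SE 0.40, adjusted p = 0.0848) with shRNA2 and 2.11 (SE 0.41, adjusted p = 0.00121) with shRNA3. TGFB1 thus rose with shRNA3 by the test, and for the mean of the 3 hairpins by 1.16 (adjusted p = 0.0131, or 0.0519 without NC library 2). With libraries 1 and 2 of shRNA3 only, the rises with shRNA1 (0.49, adjusted p = 1.63e-04), shRNA2 (0.89, adjusted p = 4.46e-07) and shRNA3 (2.54) all passed. With library 3 only, TGFB1 was again higher with each hairpin, by 0.49, 0.90 and 0.43 with shRNA1, shRNA2 and shRNA3. TGFB1 overlaps HNRNPUL1, an RNA-binding protein gene on the opposite strand, which went from 213 CPM in NC to 299, 454 and 515 CPM with shRNA1, shRNA2 and shRNA3. On that strand TGFB1 also overlaps CCDC97 (27.1 CPM in NC against 34.4, 29.1 and 22.9 CPM) and TMEM91 (1.58 against 0.636, 1.46 and 1.36 CPM). Another overlapping gene there went from 4.50 CPM in NC to 0.414, 1.16 and 6.45 CPM. Whether reads were assigned by strand is not given in the sources used here. The part of reads from these genes in TGFB1 was not tested.

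TGFB3, the ligand with the lowest level per length in NC, showed no call. It was at 2.68, 2.51 and 2.74 CPM in NC, 4.88, 3.34 and 2.01 CPM with shRNA1, 3.22, 3.55 and 3.49 CPM with shRNA2, and 1.19, 1.31 and 4.32 CPM with shRNA3. The log2 fold changes were 0.37 (95% interval -0.66 to 1.39), 0.37 (-0.66 to 1.40) and -0.19 (-1.23 to 0.85), and all 3 intervals include 0. With libraries 1 and 2 of shRNA3 only, TGFB3 fell by 1.08 (adjusted p = 0.0155), and with library 3 only the value was 0.74 (adjusted p = 0.115). It lies on chromosome 14 (75958099 to 75982991, minus strand) and overlaps IFT43 on the opposite strand, which went from 23.9 CPM in NC to 7.43, 8.58 and 8.12 CPM with the 3 hairpins.

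Per length, the RNA of the 3 ligands turned from a mix into almost only TGFB1, and protein was not measured. Levels in CPM per kilobase of exon were summed over the 3 ligands, and TGFB2 made up 32.1% ± 5.97 (SD, n = 3) of that sum in NC. Its share was 0.990% ± 0.323 with shRNA1, 0.0252% ± 0.0249 with shRNA2 and 0.0201% ± 0.0348 with shRNA3. TGFB1 made up 66.4% ± 5.82 in NC and 97.0% ± 0.732, 98.4% ± 0.125 and 98.9% ± 1.52 with shRNA1, shRNA2 and shRNA3. The summed level itself was 35.6 ± 4.70 CPM per kilobase in NC, 33.8 ± 3.95 with shRNA1 and 43.9 ± 1.70 with shRNA2, so the composition changed far more than the total in these groups. In shRNA3 the sum ranged from 32.0 in library 3 to 138 in the higher of the other libraries.

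**Figure D2:**
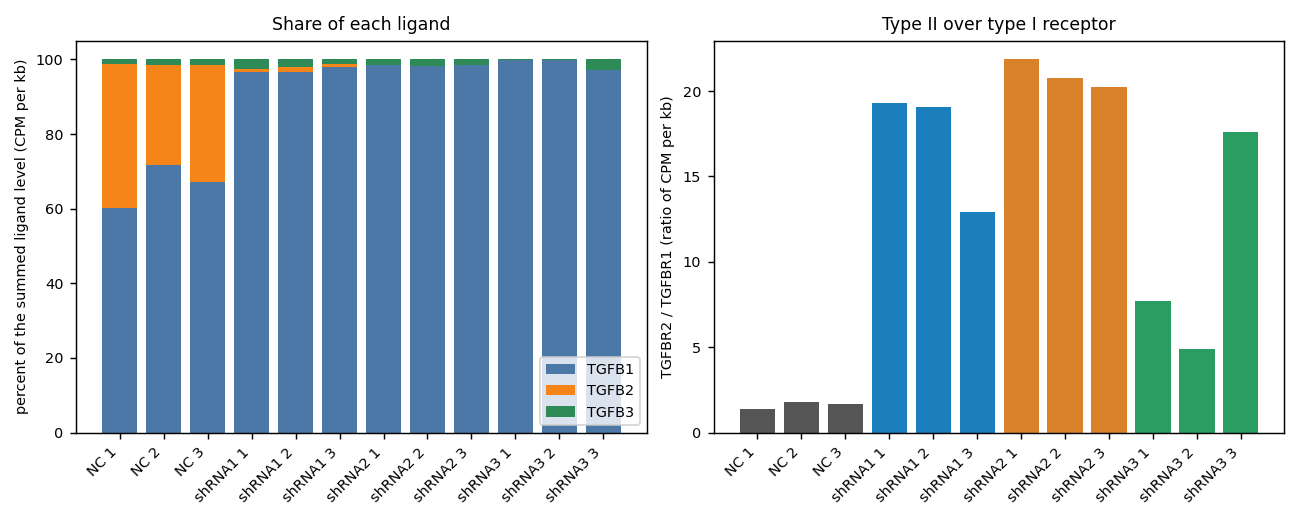
Left, share of TGFB1, TGFB2 and TGFB3 in the summed ligand level (percent of CPM per kilobase) in each of the 12 libraries; right, ratio of TGFBR2 to TGFBR1 (CPM per kilobase) in each library, with bars from 0. The TGFB2 share lies between 26.6% and 38.4% in NC and is 1.36% or less in every shRNA library, and the receptor ratio is 1.77 or less in NC and at least 4.92 in every shRNA library.

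The latency protein LTBP1 differed between hairpins in direction. This latent TGF-beta binding protein, on chromosome 2 (32946972 to 33399509, plus strand), was at 9.49, 9.21 and 9.33 CPM in NC, 2.84, 3.29 and 9.96 CPM with shRNA1, 19.6, 23.0 and 21.7 CPM with shRNA2, and 18.7, 19.1 and 10.1 CPM with shRNA3. All libraries of shRNA2 and shRNA3 were above NC, while shRNA1 had 2 libraries below and 1 above. LTBP1 rose with shRNA2 by 1.20 on the log2 scale (SE 0.42, adjusted p = 0.0306), a call that was lost when any NC or shRNA2 library was left out (adjusted p = 0.0530 to 0.0804). The changes with shRNA1 (-0.80, adjusted p = 0.124) and shRNA3 (0.77, adjusted p = 0.140) did not pass. Without shRNA1 library 3 the change with shRNA1 was -1.60 (adjusted p = 0.00113), and with libraries 1 and 2 of shRNA3 only, that with shRNA3 was 1.01 (adjusted p = 0.0297). The difference between shRNA1 and shRNA2 was itself called, -2.00 on the log2 scale (SE 0.43, adjusted p = 0.0145), and that call was lost without shRNA1 library 1 or 2 or shRNA2 library 2 or 3 (adjusted p = 0.0534 to 0.0715).

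The 2 signalling receptors moved apart. TGFBR1, the type I kinase, on chromosome 9 (99104038 to 99154192, plus strand), was at 42.8, 34.4 and 35.9 CPM in NC, 12.2, 12.6 and 20.1 CPM with shRNA1, 7.38, 8.51 and 8.53 CPM with shRNA2, and 8.45, 11.2 and 9.98 CPM with shRNA3. Every shRNA library was below every NC library, and for this gene shRNA3 library 3 lay between its sister libraries. TGFBR1 fell by 1.33 (SE 0.22, adjusted p = 3.54e-04), by 2.21 (SE 0.23, adjusted p = 1.24e-05) and by 1.93 (SE 0.23, adjusted p = 3.19e-05) on the log2 scale with shRNA1, shRNA2 and shRNA3, which is 2.52-fold, 4.63-fold and 3.82-fold lower. With shRNA3 the change was -1.95 from libraries 1 and 2 only and -1.89 from library 3 only, so it was as large either way.

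TGFBR2, the type II kinase, on chromosome 3 (30606502 to 30694142, plus strand), was higher. It was at 40.7, 41.8 and 41.4 CPM in NC, 162, 165 and 178 CPM with shRNA1, 111, 122 and 119 CPM with shRNA2, and 44.9, 37.7 and 121 CPM with shRNA3. The shRNA1 and shRNA2 groups did not overlap NC or each other, whereas libraries 1 and 2 of shRNA3 stayed around the NC level and library 3 lay with shRNA2. TGFBR2 rose 4.08-fold with shRNA1 (log2 2.03, SE 0.35, adjusted p = 4.61e-04) and 2.83-fold with shRNA2 (log2 1.50, SE 0.34, adjusted p = 0.00318). With shRNA3 the change was 0.72 (95% interval -0.02 to 1.46, adjusted p = 0.0936) from all libraries, -0.0044 (adjusted p = 0.970) from libraries 1 and 2 only and 1.58 (adjusted p = 8.86e-08) from library 3 only. The call of TGFBR2 with this hairpin therefore changed with the libraries used.

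TGFBR3, the betaglycan co-receptor, on chromosome 1 (91680343 to 91906335, minus strand), was at 5.55, 4.97 and 7.15 CPM in NC, 15.7, 16.3 and 18.4 CPM with shRNA1, 24.6, 26.7 and 26.5 CPM with shRNA2, and 48.0, 45.3 and 14.3 CPM with shRNA3. The lowest shRNA library, shRNA3 library 3, was still above the highest NC library. TGFBR3 rose 2.85-fold (log2 1.51, SE 0.37, adjusted p = 0.00424), 4.39-fold (log2 2.14, SE 0.37, adjusted p = 5.33e-04) and 6.07-fold (log2 2.60, SE 0.38, adjusted p = 1.56e-04). With shRNA3 the rise was 2.98 on the log2 scale from libraries 1 and 2 only and 1.30 from library 3 only, called in both. In NC the ratio of TGFBR2 to TGFBR1 per length was 1.61 ± 0.199 (SD, n = 3). It was 17.1 ± 3.63 with shRNA1, 21.0 ± 0.826 with shRNA2 and 10.1 ± 6.65 with shRNA3, where libraries 1 and 2 were the lowest. The ratio was above NC in all 9 shRNA libraries. TGFBR1 made up 36.7% ± 3.01 of the summed level of the 3 receptors in NC and 5.42% ± 1.22, 4.09% ± 0.152 and 7.88% ± 2.96 with shRNA1, shRNA2 and shRNA3. TGFBR2 made up 58.7% in NC, 89.7% with shRNA1 and 85.7% with shRNA2, and with shRNA3 from 54.0% to 89.2%, where TGFBR3 took up to 35.1%.

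**Figure D3:**
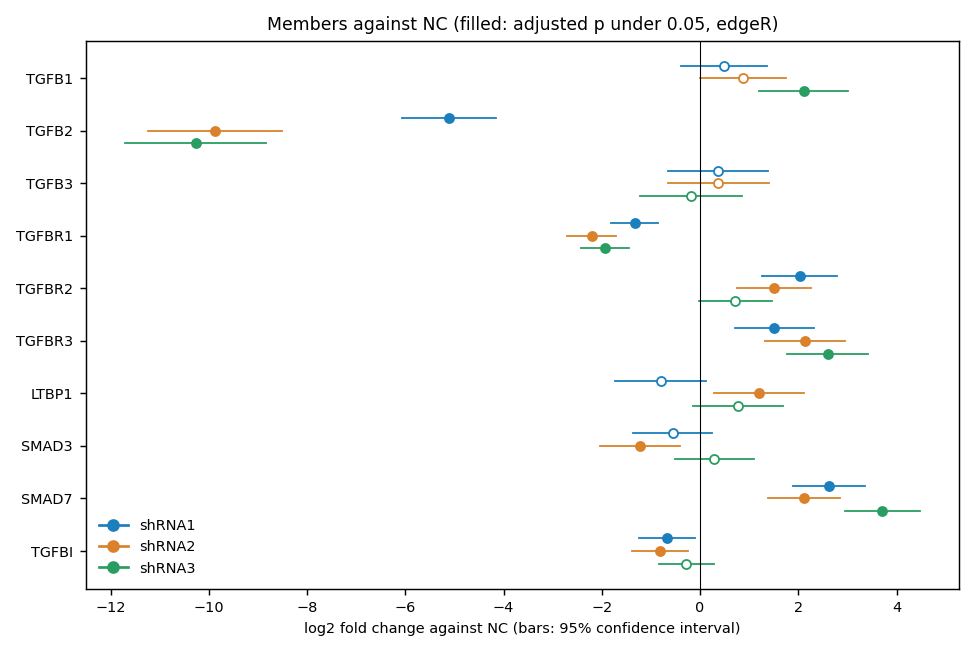
Log2 fold change of each member against NC for shRNA1, shRNA2 and shRNA3 from all 12 libraries; bars are 95% confidence intervals of the edgeR fit and filled points have an adjusted p under 0.05. TGFB2 lies at -5.11 to -10.27, TGFBR1 at -1.33 to -2.21, TGFBR3 at 1.51 to 2.60 and SMAD7 at 2.12 to 3.71, while the remaining members have at least 1 open point.

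Inside the cell, the inhibitor SMAD7 had the largest rise of the 10 with shRNA1 and shRNA3; with shRNA2 that of TGFBR3 was slightly larger. This gene, on chromosome 18 (48919853 to 48952052, minus strand), is itself a direct target of SMAD3. It was at 4.85, 4.92 and 4.21 CPM in NC, 29.6, 27.0 and 29.4 CPM with shRNA1, 20.8, 20.2 and 19.7 CPM with shRNA2, and 73.9, 82.0 and 27.0 CPM with shRNA3. Every shRNA library was above every NC library by a wide gap, and the spread within shRNA1 and shRNA2 was small. SMAD7 rose 6.14-fold (log2 2.62, SE 0.34, adjusted p = 5.81e-05), 4.33-fold (log2 2.12, SE 0.33, adjusted p = 2.61e-04) and 13.0-fold (log2 3.71, SE 0.35, adjusted p = 7.04e-06). From libraries 1 and 2 of shRNA3 only the value was 4.06 on the log2 scale and from library 3 only 2.56, called in both.

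SMAD3, the receptor-activated transducer, on chromosome 15 (67063763 to 67195195, plus strand), went in different directions. It was at 273, 274 and 318 CPM in NC, 214, 187 and 187 CPM with shRNA1, 120, 127 and 124 CPM with shRNA2, and 481, 450 and 122 CPM with shRNA3. All libraries of shRNA1 and shRNA2 were below NC, while shRNA3 had 2 libraries above NC and library 3 at the shRNA2 level. SMAD3 fell by 1.22 on the log2 scale with shRNA2 (SE 0.37, adjusted p = 0.0162, or 0.0515 and 0.0534 without shRNA2 library 1 or 3), and the changes with shRNA1 (-0.56, adjusted p = 0.216) and shRNA3 (0.28, adjusted p = 0.534) did not pass. With libraries 1 and 2 of shRNA3 only, SMAD3 rose with shRNA3 by 0.69 (adjusted p = 1.22e-05) and fell with shRNA1 by 0.55 (adjusted p = 4.38e-05). With shRNA2 the value in that fit was -1.21 (adjusted p = 1.37e-08). With library 3 only, SMAD3 was at -0.54 with shRNA1, -1.20 with shRNA2 and -1.22 with shRNA3. Scaling to raw library totals moved the median of all genes with shRNA3 from -0.03 to -0.35. It also turned the sign of SMAD3 with shRNA3, to -0.15. Per length, SMAD3 was 34.5 ± 6.20 times the level of SMAD7 in NC and 3.78 ± 0.248, 3.38 ± 0.163 and 3.04 ± 0.555 times with shRNA1, shRNA2 and shRNA3. This ratio fell in every shRNA library, shRNA3 library 3 included.

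TGFBI, a secreted matrix protein named for its induction by TGF-beta, led the 10 by level per length in NC and differed least among the 12 libraries, 2.41-fold between the highest and the lowest. On chromosome 5 (136028895 to 136063818, plus strand), it was at 324, 328 and 364 CPM in NC, 208, 182 and 251 CPM with shRNA1, 193, 196 and 191 CPM with shRNA2, and 361, 327 and 151 CPM with shRNA3. Libraries of shRNA1 and shRNA2 were all below NC, and libraries 1 and 2 of shRNA3 lay within the NC range. TGFBI fell 1.59-fold with shRNA1 (log2 -0.67, SE 0.26, adjusted p = 0.0458) and 1.75-fold with shRNA2 (log2 -0.81, SE 0.26, adjusted p = 0.0211). The call with shRNA1 was lost in 9 of the 12 fits that left out 1 library (adjusted p = 0.0541 to 0.150). That with shRNA2 was lost without NC library 3 or any shRNA2 library (0.0564 to 0.0720). Without shRNA3 library 3 both calls were kept, at -0.66 with shRNA1 (adjusted p = 4.69e-05) and -0.80 with shRNA2 (adjusted p = 7.58e-06). With library 3 as the only shRNA3 library, the values were -0.65 with shRNA1 and -0.79 with shRNA2. For shRNA3 the change was -0.28 (adjusted p = 0.387) from all libraries, 0.02 (adjusted p = 0.900) from libraries 1 and 2 only and -1.14 (adjusted p = 6.51e-05) from library 3 only. Scaled to raw library totals, it was -0.68 with shRNA3 (adjusted p = 0.00988).

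The order of the members by level per length changed with these shifts. In NC it ran from TGFBI (43.4 CPM per kilobase) through SMAD3 (31.6), TGFB1 (23.5), TGFB2 (11.6), TGFBR2 (8.78) and TGFBR1 (5.51) to LTBP1 (1.28), SMAD7 (0.926), TGFBR3 (0.677) and TGFB3 (0.538). TGFB2 was thus the fourth most abundant member in NC, and it was the last of the 10 in each of the 3 shRNA groups. TGFBR2 led in shRNA1 (35.8 CPM per kilobase), ahead of TGFB1 (32.8), and TGFB1 led in shRNA2 (43.2) and shRNA3 (101).

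The hairpins against one gene also differed from each other. Of 30 member differences between pairs of hairpins, 11 passed, with p-values adjusted over all genes in each pair. At least 1 pair was called for 8 of the 10 members and for 37.2% of all genes. Between shRNA1 and shRNA2, 3 members differed against 12.3% of all genes (5.78% higher with shRNA1, 6.53% lower): TGFB2 and TGFBR1 were higher with shRNA1 and LTBP1 was lower. Between shRNA1 and shRNA3, 6 differed against 30.0% of all genes (11.9% higher with shRNA1, 18.1% lower), with TGFB2 and TGFBR2 higher and TGFB1, TGFBR3, LTBP1 and SMAD7 lower with shRNA1. SMAD3 and SMAD7 were lower with shRNA2 than with shRNA3, the 2 members called in that pair, against 8.34% of all genes (1.91% higher with shRNA2, 6.43% lower). These counts changed with the shRNA3 libraries used. With its libraries 1 and 2 only, 8, 10 and 7 members differed in the 3 pairs, against 39.7%, 63.4% and 59.2% of all genes, and with library 3 only 8, 3 and 0, against 36.8%, 8.10% and 1.28%. With each library left out in turn, from 1 to 8, from 1 to 10 and from 0 to 7 members differed. For 8 of the 10 members shRNA3 library 3 lay within the range of the shRNA1 and shRNA2 libraries, the exceptions being TGFBR3 and TGFBI, whereas libraries 1 and 2 lay outside that range for 7 of 10, the exceptions being TGFB2, TGFBR1 and LTBP1.

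Within shRNA3, libraries 1 and 2 averaged 4.40 times the level of library 3 for TGFB1, 3.83 times for SMAD3, 3.27 times for TGFBR3, 2.88 times for SMAD7 and 2.28 times for TGFBI. TGFB3 and TGFBR2 were the other way, with library 3 at 3.46 and 2.92 times the mean of libraries 1 and 2. TGFBR1 was level between them, at 9.80 CPM in libraries 1 and 2 and 9.98 CPM in library 3. No label gives a reason for the split, and its part in the shRNA3 results can be read only from the values given with and without those libraries.

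**Figure D4:**
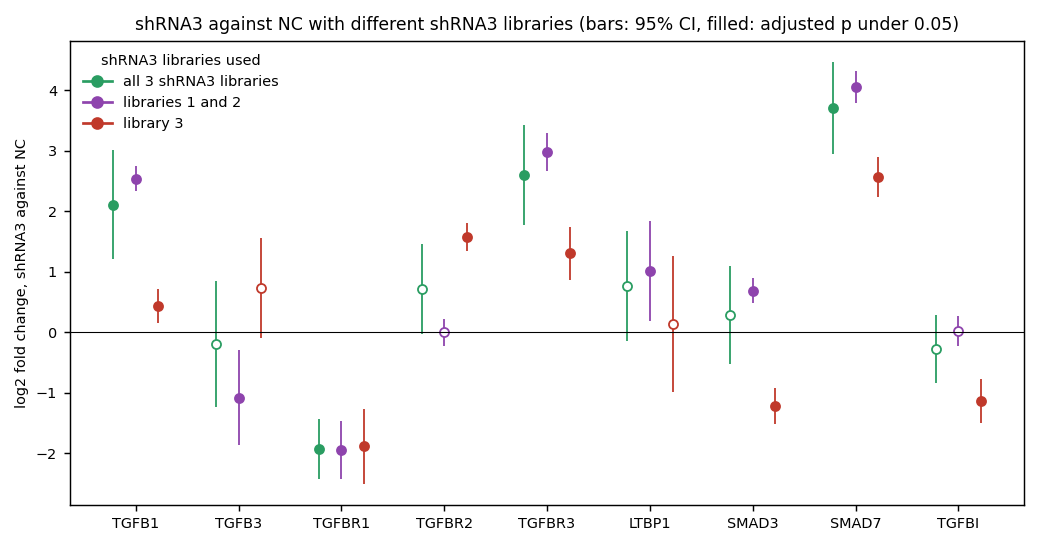
Log2 fold change of 9 members with shRNA3 against NC, from all 3 shRNA3 libraries, from libraries 1 and 2 and from library 3; bars are 95% confidence intervals, filled points have an adjusted p under 0.05, and TGFB2, which is far below the axis, is left out. TGFBR1 stays near -1.9 in each, SMAD7 and TGFBR3 stay above 1, and SMAD3 goes from 0.69 with libraries 1 and 2 to -1.22 with library 3.

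The rest of the pathway was read from 6 gene lists. Of 12 tested genes for the latent complex, activation and release, 8 were lower and 2 higher with shRNA1, 6 and 2 with shRNA2, and 7 and 4 with shRNA3. Of all genes, 30.6%, 28.4% and 27.6% were lower and 26.8%, 24.6% and 26.4% higher, shares against which the counts of each list below can be read. From shRNA3 libraries 1 and 2 only the counts were 7 lower and 4 higher, and from library 3 only 7 and 3. The list median was -1.06, -0.56 and -1.08 on the log2 scale, where that of all genes was -0.02, -0.05 and -0.03. Among the falling genes were ITGB6 and ITGAV, the chains of the integrin that activates latent TGF-beta on epithelial cells. ITGB6 went from 36.7 CPM in NC to 0.166, 0.0936 and 1.13 CPM with shRNA1, shRNA2 and shRNA3, and ITGAV from 204 to 54.9, 45.5 and 56.2 CPM. Thrombospondin THBS1, another activator, dropped from an NC mean of 836 CPM to 98.6, 18.3 and 32.5 CPM, a log2 change of -3.08, -5.51 and -4.69. LTBP2 also fell, from 20.2 to 11.4, 4.28 and 5.71 CPM. LTBP3, a latency protein like LTBP1, rose from 75.9 to 143, 232 and 472 CPM, and the integrin chain ITGB5 rose from 87.6 to 152, 171 and 248 CPM. With shRNA1 the adjusted p was 0.0322 for LTBP3 and 0.0207 for ITGB5, and both calls were lost in some fits that left out 1 library.

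Of 12 receptors, co-receptors and regulators, 4 were higher and 2 lower with shRNA1, 4 and 4 with shRNA2, and 4 and 3 with shRNA3 (medians 0.42, -0.24 and -0.30), in sum near the 57.4%, 53.0% and 53.9% of all genes called. From shRNA3 libraries 1 and 2 only 4 were higher and 6 lower, and from library 3 only 5 and 3. Endoglin, ENG, a co-receptor related to TGFBR3, rose from 1.32 CPM in NC to 22.8, 28.6 and 15.2 CPM, or 17.2-fold, 21.6-fold and 11.5-fold. The type I receptor ACVRL1, best known from endothelium, rose from 0.267 to 3.24, 2.98 and 8.71 CPM. Of the endothelial markers, PECAM1 went the same way, from 0.133 CPM in NC to 2.60, 4.76 and 8.74 CPM, CDH5 the other way, from 17.3 to 1.94, 2.53 and 1.35 CPM, and KDR was at 0 in every shRNA library; their part in the ACVRL1 values was not tested. The activin receptor ACVR2B rose from 8.94 to 18.1, 17.1 and 23.0 CPM, and STRAP, a receptor-associated inhibitor, from 117 to 193, 165 and 163 CPM. BMPR2, the type II receptor for bone morphogenetic proteins (BMPs), fell from 48.8 to 24.3, 26.7 and 21.1 CPM and the type I receptor ACVR1 from 22.1 to 14.8, 13.9 and 11.8 CPM. Scaled to raw library totals, the calls of STRAP with shRNA2 and shRNA3 were lost.

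Among 19 SMADs, partners and regulators, 8 were higher and 3 lower with shRNA1, 7 and 6 with shRNA2, and 5 and 5 with shRNA3 (medians 0.57, 0.22 and 0.12), where 57.4%, 53.0% and 53.9% of all genes were called. With shRNA3 the balance turned with the libraries: 4 higher and 9 lower from libraries 1 and 2 only, and 9 and 5 from library 3 only. SMAD6, the inhibitory SMAD of the BMP branch, rose from 2.54 CPM in NC to 24.1, 29.7 and 27.6 CPM, alongside the rise of SMAD7. The common partner SMAD4 rose from 8.12 to 50.4, 42.7 and 36.9 CPM and the BMP-branch SMAD9 from 2.27 to 8.98, 14.4 and 11.0 CPM. CREBBP, a coactivator of SMADs, rose from 59.6 to 150, 132 and 109 CPM. TGIF1, a corepressor, fell from 51.2 to 31.0, 26.9 and 23.1 CPM, the SMAD phosphatase PPM1A from 82.6 to 48.9, 44.5 and 50.3 CPM, and SMAD5 from 104 to 81.7, 66.1 and 76.6 CPM.

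The 30 target genes split by direction. With shRNA1 14 were higher and 9 lower, with shRNA2 9 and 10, and with shRNA3 15 and 7 (medians 0.89, -0.14 and 0.71), against 57.4%, 53.0% and 53.9% of all genes called; with shRNA3 library 3 only the split was 9 higher and 13 lower, and with libraries 1 and 2 only 18 and 7. With all 3 hairpins 8 of the 30 were higher and 6 lower, against the 16.0% and 19.7% of all genes. Vimentin, VIM, an intermediate filament of mesenchymal cells, rose from 3.26 CPM in NC to 445, 609 and 694 CPM, and the transcription factor ZEB1 from 0.485 to 7.78, 4.37 and 2.72 CPM. ID1, a transcriptional regulator induced by BMPs, rose from 54.9 to 414, 650 and 698 CPM and ANGPTL4 from 1.17 to 22.9, 8.69 and 37.4 CPM. CCN2, a matricellular protein, fell from 71.8 to 4.79, 0.760 and 6.61 CPM, and NEDD9, an adhesion scaffold, from 53.0 to 5.62, 2.39 and 12.5 CPM. The smooth muscle actin gene ACTA2 fell from 9.91 to 1.10, 3.18 and 1.63 CPM and the protease gene MMP2 from 3.83 to 0.570, 0.491 and 0.549 CPM. Genes induced by TGF-beta in textbook accounts were therefore found on both sides.

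**Figure D5:**
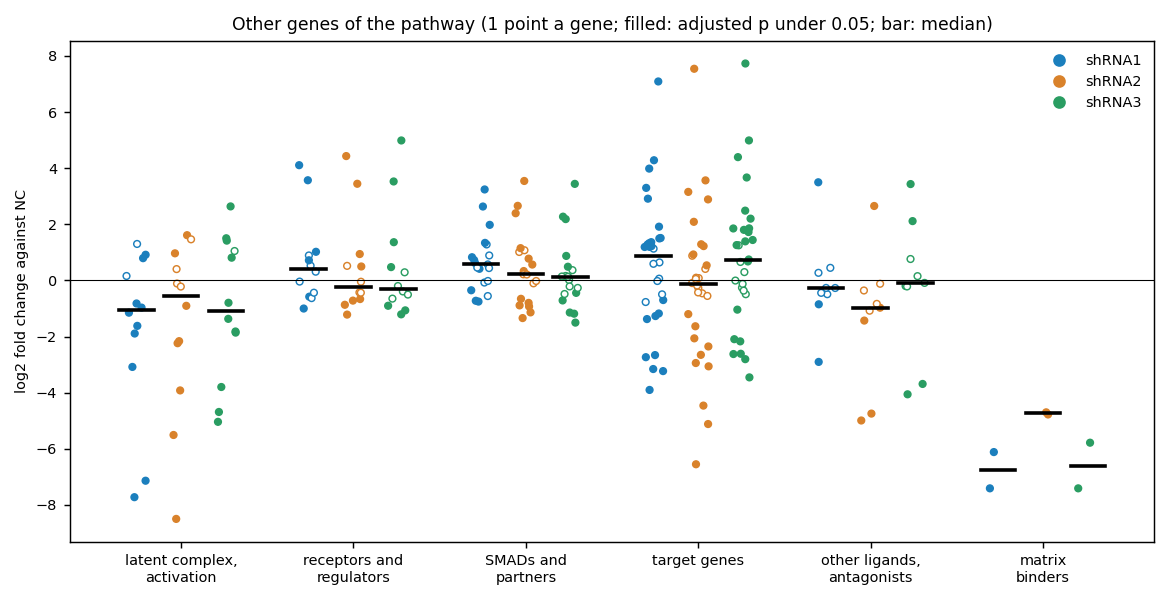
Log2 fold change against NC of each tested gene in the 6 pathway lists, 1 point a gene, for shRNA1, shRNA2 and shRNA3; filled points have an adjusted p under 0.05 and the bar is the list median. The latent complex and activation list has its medians at -1.06, -0.56 and -1.08, and the target genes spread from below -6 to above 7.

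Of 13 other TGF-beta family ligands and antagonists 9 were tested, and 1 was higher and 2 lower with shRNA1, 1 and 4 with shRNA2, and 2 and 2 with shRNA3 (medians -0.27, -0.97 and -0.09), where 57.4%, 53.0% and 53.9% of all genes were called. Of 10 tested without part of shRNA3, 3 were higher and 4 lower from libraries 1 and 2 only, and 1 and 3 from library 3 only. The BMP antagonist NOG rose from 0.467 CPM in NC to 5.35, 2.97 and 5.10 CPM, and the ligand BMP4 fell from 5.27 to 0.698, 0.191 and 0.281 CPM. Among 5 matrix binders of TGF-beta, the family to which fibromodulin belongs, only BGN and LUM passed the filter and both fell with each hairpin. Biglycan, BGN, went from 8.53 CPM in NC to 0.115, 0.306 and 0.149 CPM, and FMOD, DCN and ASPN had at most 5 counts in any library. Of the 30 genes named from these lists, 24 kept every call under the alternatives run on them other than a log2 threshold of 1 (BGN, BMP4 and MMP2 did not enter the fit of genes with a mean of at least 50 counts), and none turned its direction; ACVR1, CREBBP, ITGB5, LTBP3, SMAD5 and STRAP lost the call with at least 1 hairpin under some alternative. All 30 kept their call with shRNA3 both from libraries 1 and 2 only and from library 3 only.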

How the data were processed

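The authors deposited a single gene table of estimated counts (each an expected count that need not be whole, as 13.8% are not) for 12 libraries, without scaling between libraries. The submitters' processing notes name GRCh38, HISAT2 and HTSeq 0.11.2, with no role or order given. The step that gave values that are not whole, the annotation and the strand setting are not given in the sources used here; 6 of the 10 members overlap a gene on the opposite strand. The library kit was NEBNext Ultra RNA, per the labels' protocols.

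Counts were rounded to whole numbers, scaled by TMM (factors 0.771 to 1.11) and filtered with filterByExpr (minimum count 10, minimum total 15), which left 17532 of 61044 identifiers. edgeR 4.0.16 (R 4.3.3) was fitted by robust quasi-likelihood as 1 model of the 4 groups (8 residual degrees of freedom, common biological coefficient of variation 0.289), and checked on simulated counts. The groups and library numbers come from the titles. The SE is the log2 fold change divided by the square root of F. Levels per length use the exon union of GENCODE 29. Intervals of count ratios and the limit of 3 counts for a count of 0 reflect counting alone: with no molecular identifiers, PCR copies of a molecule were counted too.

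Replicates differed by more than counting noise (chi-square per gene 3.61 to 238), so each was counted as 1 sample; whether they share a culture or RNA is not given in the sources used here. Alternatives were DESeq2 size factors, raw library totals, no filter, a mean of at least 50 counts, the DESeq2 1.42.0 Wald test, a replicate block, only the groups compared, a log2 fold change of at least 1, each library left out, and shRNA3 libraries 1 and 2 left out together, where the lone shRNA3 library is assumed to vary like the other groups.

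The members, the gene lists and the tests were chosen with earlier results of these data known. Named from the lists were up to 4 rising and 4 falling genes each: those with a mean of at least 1 CPM, called in 1 direction with all 3 hairpins and with every shRNA library beyond every NC library, ranked by the smallest of their 3 changes. One gene of the leukocyte marker list is not reported here and was left out of its sum.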

Additional observations from a re-analysis of the deposited data

Results flagged for a closer look

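The hairpins were directed against the same gene, and 11 differences in a member between hairpin groups passed edgeR's quasi-likelihood test with Benjamini-Hochberg adjustment. TGFB2 was higher with shRNA1 than with shRNA2 by 4.76 on the log2 scale and than with shRNA3 by 5.16. TGFBR1 was higher with shRNA1 than with shRNA2 by 0.88, and TGFBR2 was higher with shRNA1 than with shRNA3 by 1.31. LTBP1 differed by -2.00 between shRNA1 and shRNA2 and by -1.57 between shRNA1 and shRNA3. Against shRNA3, the shRNA1 value differed by -1.63 for TGFB1, by -1.09 for TGFBR3 and by -1.09 for SMAD7. Against shRNA3, the shRNA2 value differed by -1.50 for SMAD3 and by -1.59 for SMAD7. Of the 12 fits that left out 1 library, both TGFB2 calls were kept in all 12. That of TGFBR1 was kept in 7, that of TGFBR2 in 8 and each of LTBP1 in 8. For shRNA1 against shRNA3, the calls were kept in 9 fits for TGFB1, 1 for TGFBR3 and 7 for SMAD7. For shRNA2 against shRNA3, they were kept in 1 for SMAD3 and 3 for SMAD7. With library 3 as the single shRNA3 library, the differences from shRNA1 were 0.0609 for TGFB1, 0.22 for TGFBR3 and 0.0695 for SMAD7, and that of SMAD3 from shRNA2 was 0.0122.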

How the results depend on the processing

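The members called with all 3 hairpins (TGFB2, TGFBR1, TGFBR3 and SMAD7) kept their direction and their call against NC under every alternative run. Without TMM factors the median of all genes moved to -0.10, -0.18 and -0.35 on the log2 scale with shRNA1, shRNA2 and shRNA3, and the share of called genes that were higher with shRNA3 went from 48.9% to 35.1%. SMAD3 with shRNA3 then turned to -0.15. Between shRNA1 and shRNA2, TGFB3 turned to 0.0118 with DESeq2 size factors or the DESeq2 Wald test, 0.0447 with raw library totals and 0.0206 with the replicate block, and to as much as 0.26 without shRNA1 library 2 or 3 or shRNA2 library 2 or 3.

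Leaving out libraries of shRNA3 turned more values. Against NC, TGFB3 with shRNA3 became 0.16 or 0.13 without library 1 or 2, 0.74 without both and -1.08 without library 3. TGFBR2 ran from -0.0044 without library 3 to 1.05 without library 2 and 1.58 without both 1 and 2, TGFBI from -1.14 without both and -0.44 without library 1 to 0.0174 without library 3, and SMAD3 became -1.22 without libraries 1 and 2; for the mean of the 3 hairpins TGFB3 ran from -0.11 without library 3 to 0.32 without library 1 and 0.50 without both 1 and 2. With library 3 only, the shRNA1 minus shRNA3 values turned to 0.0609 for TGFB1, -0.36 for TGFB3, 0.22 for TGFBR3, 0.67 for SMAD3, 0.0695 for SMAD7 and 0.48 for TGFBI. The shRNA2 minus shRNA3 values turned to 0.46 for TGFB1, -0.75 for TGFB2, -0.35 for TGFB3, -0.0565 for TGFBR2, 0.85 for TGFBR3, 0.0122 for SMAD3 and 0.34 for TGFBI; that of TGFB2 also turned without shRNA2 library 1 (-0.47) or shRNA3 library 1 or 2 (-0.0577 and -0.0630) and was 3.22 without shRNA3 library 3.

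Counts of all genes called, with 1 library left out, ran from 8677 to 13341 with shRNA1, 7960 to 12798 with shRNA2, 8314 to 13330 with shRNA3 and 9012 to 13529 for their mean against NC, and from 559 to 7233, 1788 to 11573 and 0 to 10800 for shRNA1 against shRNA2, shRNA1 against shRNA3 and shRNA2 against shRNA3. Members called ran from 5 to 8, 5 to 9, 5 to 8, 5 to 8, 1 to 8, 1 to 10 and 0 to 7; each highest value of these counts was reached without shRNA3 library 3. With library 3 only, 8 members were called with shRNA3 against NC, and the pairs gave 7031, 1547 and 244 genes and 8, 3 and 0 members. With only the groups compared, they gave 6251, 0 and 0 genes (8, 0 and 0 members), where 4295 and 3186 genes had an unadjusted p under 0.05 in the pairs with 0, and the DESeq2 Wald test on all 12 libraries called 6749 and 3793 genes there. For shRNA1 against shRNA2 the DESeq2 Wald test gave 3464 genes and no filter 1420. For shRNA2 against shRNA3, raw library totals gave 596 genes and 1 member, and no filter 911 genes and 1 member. With a log2 fold change of at least 1 the mean of the hairpins gave 6990 genes and the pairs 1031, 2971 and 974. The cause of these changes was not tested.

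Libraries with the same number did not deviate together (mean correlation -0.00434 over 18 pairs, -0.0663 to 0.0520, against 0.00186 over 36 pairs with different numbers), so the numbers were not taken as pairing. With the replicate block, shRNA2 against shRNA3 gave 378 genes and 1 member, and TGFBI with shRNA1 against NC had an adjusted p of 0.0688. The list counts without shRNA3 libraries were added after seeing the data. Depth limits TGFB2 with shRNA2 and shRNA3 and FMOD throughout.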

Other observations

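Over the 12 libraries the pattern of log2(CPM + 1) most like that of each member was found among 13829 genes, as a description in which all points share the split between NC and shRNA libraries. The most alike gene was RNF5 for TGFB1 (Pearson r = 0.994), PDHX for TGFB2 (0.994), GPS1 for TGFB3 (0.947), THBS1 for TGFBR1 (0.982) and TSR1 for TGFBR2 (0.995). It was LSM7 for TGFBR3 (0.994), CLTCL1 for LTBP1 (0.967), GABARAPL1 for SMAD3 (0.992), CCND3 for SMAD7 (0.994) and CLCN6 for TGFBI (0.976). The number of genes at r = 0.95 or above ran from 0 for TGFB3 and 13 for LTBP1 to 695 for TGFB2, at a pseudocount of 1. With a pseudocount of 0.1 the number for TGFB2 was 112, below TGFBR2 (300), SMAD7 (244), TGFBR3 (199) and TGFB1 (160), and the most alike gene changed for TGFB2, TGFBR1 and LTBP1. Across all genes tested, 3 were at 50 CPM or more in every NC library with 0 counts in every shRNA library, and 0 showed the reverse.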
